A study of Mus musculus with 4 samples.

Results

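The sperm ion channel genes described here were 8 in number: the pore-forming CatSper subunits Catsper1, Catsper2, Catsper3 and Catsper4, the auxiliary CatSper subunits Catsperb, Catsperd and Catsperg1, and the potassium channel Kcnu1. They were chosen by name, with earlier results of these data known, and all 8 were found among the 23980 genes of the deposited expression table. Their RNA was compared between L/Z spermatocytes lacking Pld6 or Dnmt3l and control spermatocytes, to ask whether either mutation alters gene expression in early meiotic germ cells. In both mutants all 8 were lower than in both controls by more than 2-fold in FPKM + 1, where FPKM are fragments scaled to transcript length and library depth. Of all 23980 genes, 5.78% met that rule in Dnmt3L KO and 5.41% in Pld6 KO. Catsper1, Catsper4 and Catsperb had 0 or 1 fragment left in the mutants, whereas Catsperg1 and Kcnu1 kept 28.1% to 31.2% of the level in the control of their line. No mutant has a replicate, and the spread of edgeR's quasi-likelihood test rests on the controls alone. At an adjusted p of 0.05 the test called 0 of the 8, and 0 of all 18657 genes tested, in either mutant. At an unadjusted p under 0.05 it had 6 of the 8 lower in each mutant, beside 7.72% (Dnmt3L KO) and 7.41% (Pld6 KO) of all genes tested. DESeq2 called 6 in Dnmt3L KO (5.31% of the genes given an adjusted p) and 4 in Pld6 KO (5.1%). With both mutants as 1 group, edgeR called 0 of the 8, and 0 of all 17686 genes tested, at an adjusted p of 0.05. A fit added after the values were seen, with each mutant set against the control of its line, called 7 lower. This fit had 1 residual degree of freedom and called 5.98% of all genes tested lower.

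CatSper is a calcium channel of the sperm flagellum. Its pore is assembled from 4 different proteins, each the product of its own gene, and is held in a complex with several auxiliary membrane proteins and small cytoplasmic ones. Calcium entry through CatSper drives the vigorous tail beat called hyperactivation, and Kcnu1 (also known as Slo3) carries the potassium current that sets the sperm membrane potential. Male mice lacking a pore subunit or Kcnu1 are infertile. The genes of this channel system are known as testis-specific genes transcribed in late spermatocytes and spermatids, whereas leptotene and zygotene (L/Z) spermatocytes have only just entered meiosis.

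There were 4 libraries of polyA(+) RNA from FACS-purified L/Z spermatocytes, taken 3 to 4 weeks after birth from F1 hybrids of the mouse strains C57BL6/J and MSM/Ms. Control replicate 1 came from a Dnmt3l heterozygote (Dnmt3L Het) and control replicate 2 from a Pld6 wild type (Pld6 WT), and the mutants, Dnmt3L KO and Pld6 KO, had 1 library each. Pld6 encodes a mitochondrial protein needed to make piRNAs, the small RNAs that silence retrotransposons in germ cells, and Dnmt3l encodes a cofactor of the DNA methyltransferases that set methylation in prospermatogonia. No mutant value has a replicate, the spread is that between control libraries of unlike genotype and line, and the number of animals behind a library was not given in the sources used here. In the study's own sorting, mutant testes held no germ cells beyond the zygotene stage, whereas control testes held pachytene spermatocytes and spermatids as well.

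Fragments assigned to genes ranged from 30439943 (Pld6 KO) to 63875934 (Dnmt3L Het) per library. Pld6 was at 17.2 FPKM in Dnmt3L Het, 19.5 FPKM in Pld6 WT, 8.55 FPKM in Dnmt3L KO and 0.334 FPKM in Pld6 KO. Dnmt3l was at 1.27, 0.980, 0 and 0.432 FPKM in the same order. Both targeted genes thus had their minimum where the label named their knockout. The labelled cell type was checked with 12 L/Z markers (Sycp1, Sycp3, Dmc1, Spo11 and others), all of which were detected in every library, at a median of 74.5, 166, 57.2 and 107 FPKM. Spermatid and Sertoli cell markers set the controls apart from each other, and their values are given with the results on the controls.

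Sequences upstream of the transcription starts are shown for members whose windows lie mostly outside annotated exons, to give the letters behind the CpG counts that are later set beside the values. The windows are the 250 bases before each RefSeq start (GRCm38.p6), and 6 of the 8 genes had an entry. Printed stretches leave out bases inside exons of GENCODE M21 or inside a RefSeq gene that begins within the window. They are written 5′ to 3′ on the strand of the gene, with CpG dinucleotides in capitals for Catsperb and Catsperd and an X-box motif in capitals for Catsperg1. The Catsper4 stretch holds 0 CpG, as the 1 CpG of its window lies in the bases left out. The Catsperd and Catsperg1 stretches lie before an inner start, within the annotated span of their own gene.
Catsper4 (chr4:134227432-134227633, minus strand): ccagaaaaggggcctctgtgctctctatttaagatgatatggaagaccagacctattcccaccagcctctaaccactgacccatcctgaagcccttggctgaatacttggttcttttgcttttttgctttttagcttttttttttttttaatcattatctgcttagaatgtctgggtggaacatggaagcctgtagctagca
Catsperb (chr12:101404423-101404644, plus strand): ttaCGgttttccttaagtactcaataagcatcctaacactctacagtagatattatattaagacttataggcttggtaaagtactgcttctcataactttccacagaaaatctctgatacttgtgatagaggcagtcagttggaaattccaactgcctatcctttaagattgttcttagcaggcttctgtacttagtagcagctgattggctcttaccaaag
Catsperd (chr17:56627893-56628142, plus strand, the second of its RefSeq starts): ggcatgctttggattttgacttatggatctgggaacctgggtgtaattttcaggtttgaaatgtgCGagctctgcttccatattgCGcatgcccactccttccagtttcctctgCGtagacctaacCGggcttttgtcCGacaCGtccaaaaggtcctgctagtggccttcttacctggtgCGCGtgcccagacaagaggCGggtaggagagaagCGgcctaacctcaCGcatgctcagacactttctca
Catsperg1 (chr7:29214036-29214283, minus strand, the first of its RefSeq starts): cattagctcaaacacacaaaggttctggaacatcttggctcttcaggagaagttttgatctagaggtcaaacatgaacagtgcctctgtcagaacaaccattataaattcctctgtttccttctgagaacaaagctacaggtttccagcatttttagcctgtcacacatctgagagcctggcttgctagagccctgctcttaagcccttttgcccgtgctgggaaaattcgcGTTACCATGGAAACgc
The 250-base window of Catsper4 held 1 CpG, and so did that of Catsperb, a number not exceeded by 18.8% of the 32851 windows of 27025 genes, whose median was 6 CpG. Catsper3 held 2 CpG. The Catsperd windows held 25 and 11 CpG at its first and second start, and those of Catsperg1 held 5 and 7. The Catsper2 window held 35 CpG, a number reached or passed by 2.97% of all windows, and lies over the first exon of Pdia3 on the opposite strand. The X-box searched for (GTTNCCATGGNAAC, which reads the same on both strands) was present in the first Catsperg1 window, beginning 18 bases before the start, and in 0.11% of all windows. The cyclic AMP response element TGACGTCA, also the same on both strands, was in none of the members' windows and in 1.55% of all. Such matches describe the letters only.

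All 4 pore subunits were lower in both mutants than in either control, and the 4 differed in how much RNA was left. Catsper1 (chr19:5335615-5344281), the founding pore subunit, was at 4.66 FPKM (563 fragments) in Dnmt3L Het and 4.61 FPKM (349 fragments) in Pld6 WT. In both mutants it was listed at 0 fragments. With the 3 fragments that a count of 0 allows, it was at least 137-fold lower in Dnmt3L KO than in Dnmt3L Het and at least 90.6-fold lower in Pld6 KO than in Pld6 WT. Fewer cells that carry this RNA and less RNA per cell cannot be told apart in such bulk samples, here and for every gene that follows.

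Catsper4 (chr4:134211965-134227431) showed the same pattern. It was at 7.46 FPKM (714 fragments) in Dnmt3L Het, 5.21 FPKM (312 fragments) in Pld6 WT, 0 in Dnmt3L KO and 0.0241 FPKM (1 fragment) in Pld6 KO. Dnmt3L KO was at least 174-fold below its heterozygote. The single fragment of Pld6 KO put it 216-fold below Pld6 WT, with a 95% counting interval of 38.4 to 8544.

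Catsper3 (chr13:55784500-55824048) kept some of its RNA. Its levels were 8.94 FPKM (637 fragments) in Dnmt3L Het, 4.91 FPKM (221 fragments) in Pld6 WT, 0.614 FPKM (29 fragments) in Dnmt3L KO and 0.759 FPKM (24 fragments) in Pld6 KO. The mutants lay together and well below the controls, which themselves differed by 1.82-fold, the widest gap between controls among the 8 genes. Catsper3 was 14.6-fold lower in Dnmt3L KO than in the heterozygote (95% counting interval 10.1 to 21.9) and 6.47-fold lower in Pld6 KO than in Pld6 WT (4.23 to 10.3). The choice of control matters here: on the log2(FPKM + 1) scale the change in Dnmt3L KO was -2.30 against the mean of the controls, -1.87 without Dnmt3L Het and -2.62 without Pld6 WT, and in Pld6 KO it was -2.17, -1.75 and -2.50.

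Catsper2 (chr2:121391633-121414598), the most abundant of the 8 genes in every library, kept the most RNA among the pore subunits. It was at 31.7 FPKM (4212 fragments) in Dnmt3L Het, 29.2 FPKM (2430 fragments) in Pld6 WT, 5.05 FPKM (490 fragments) in Dnmt3L KO and 8.77 FPKM (569 fragments) in Pld6 KO. The controls were close and neither mutant came near them. Catsper2 was 6.28-fold lower (5.71 to 6.91) in Dnmt3L KO and 3.33-fold lower (3.03 to 3.65) in Pld6 KO, each against the control of its line. Its annotated span shares 697 bases with that of Pdia3, a chaperone gene on the other strand with 362, 309, 346 and 412 FPKM in the libraries in the same order. Whether the authors' counting used strand is not stated, so part of the Catsper2 fragments could belong to Pdia3.

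**Figure D1:**
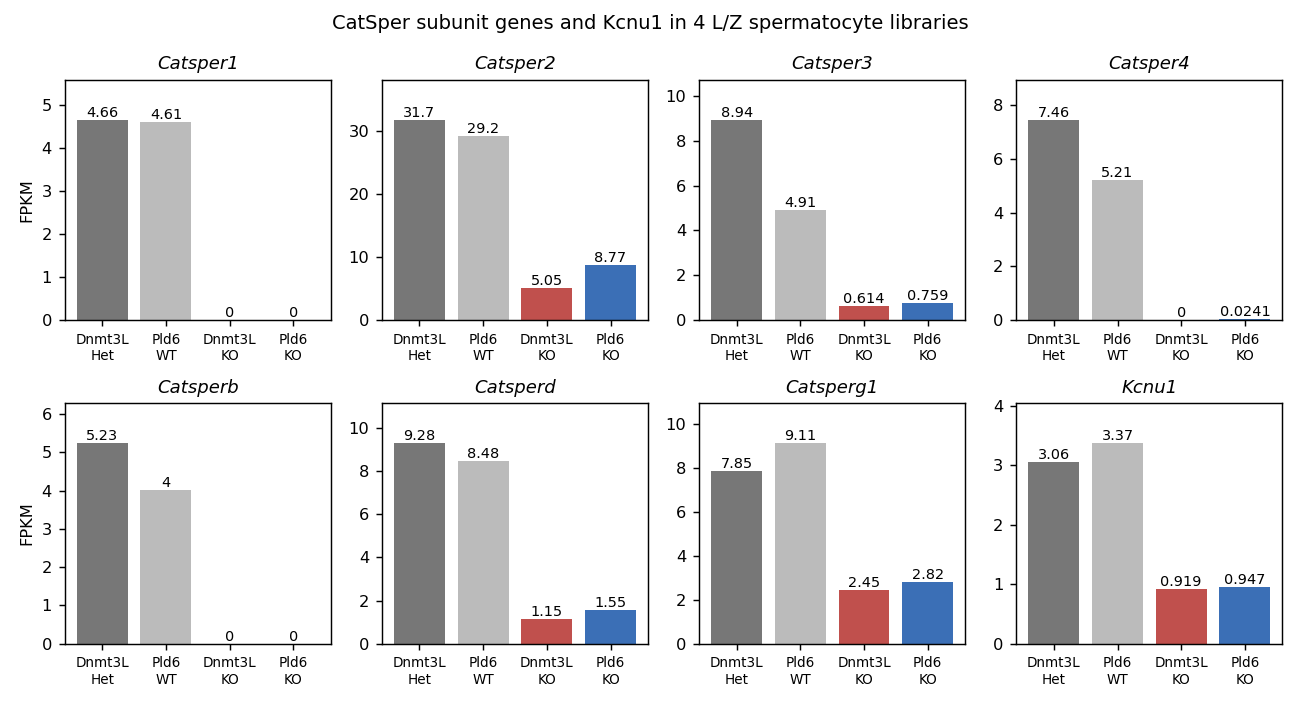
FPKM (vertical axes, linear and starting at 0, with a different range in each panel) of the 8 genes in the 4 libraries (horizontal axes, 1 bar per library, so there are no error bars). Both mutant bars lie below both control bars in each panel, and Catsper1 and Catsperb stand at 0 in both mutants.

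Among the auxiliary subunits, Catsperb was the one with no fragment left. Catsperb (chr12:101404645-101626009), a large membrane protein of the extracellular canopy of the channel, was at 5.23 FPKM (1193 fragments) in Dnmt3L Het and 4.00 FPKM (573 fragments) in Pld6 WT, and at 0 in both mutants. It was at least 290.3-fold lower in Dnmt3L KO and at least 149-fold lower in Pld6 KO than in the control of the line. Of its longest annotated transcript, 14.6% of the 50-base windows also occur in a transcript of Gm18795, so that reads from there have no unique origin.

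Catsperd (chr17:56626911-56664456), a further canopy subunit needed for a stable channel, kept a share of its RNA too. It was at 9.28 FPKM (1424 fragments) in Dnmt3L Het, 8.48 FPKM (816 fragments) in Pld6 WT, 1.15 FPKM (129 fragments) in Dnmt3L KO and 1.55 FPKM (116 fragments) in Pld6 KO. The mutants and the controls did not overlap. The gene was 8.06-fold lower (6.73 to 9.73) in Dnmt3L KO and 5.48-fold lower (4.50 to 6.71) in Pld6 KO.

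Catsperg1 (chr7:29181532-29215589) encodes 1 of the mouse gamma subunits and was the CatSper member with the smallest difference. Its levels were 7.85 FPKM (1714 fragments) in Dnmt3L Het, 9.11 FPKM (1248 fragments) in Pld6 WT, 2.45 FPKM (391 fragments) in Dnmt3L KO and 2.82 FPKM (301 fragments) in Pld6 KO. The mutants were again close and below both controls, 3.20-fold (2.87 to 3.58) and 3.23-fold (2.84 to 3.67) below the control of the line. Its values are uncertain, since 41.0% of the 50-base windows of its transcript also occur in its paralogue Catsperg2.

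Kcnu1 (chr8:25848627-25937943) was the lowest of the 8 genes in both controls, yet not in the mutants. It was at 3.06 FPKM (661 fragments) in Dnmt3L Het, 3.37 FPKM (457 fragments) in Pld6 WT, 0.919 FPKM (145 fragments) in Dnmt3L KO and 0.947 FPKM (100 fragments) in Pld6 KO. Both mutants lay below both controls, by 3.33-fold (2.78 to 4.01) in Dnmt3L KO and 3.56-fold (2.86 to 4.46) in Pld6 KO. Lrrc52, which encodes the auxiliary subunit of Kcnu1 in sperm and was picked out after its values had been seen, was at 1.89 and 1.65 FPKM in the controls (115 and 63 fragments) and at 0 in both mutants. It was at least 28.0-fold lower in Dnmt3L KO and at least 16.4-fold lower in Pld6 KO. Fragments of the channel subunit were thus present in both mutants where those of its partner were not detected.

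The share of RNA left against the control of the same line differed widely among the 8 genes. Catsper1, Catsper4 and Catsperb were at 0% to 0.464%. Catsper3 and Catsperd were at 6.86% and 12.4% in Dnmt3L KO and at 15.5% and 18.3% in Pld6 KO. Catsperg1 and Kcnu1 were at 28.1% to 31.2% in both mutants. Catsper2 was at 15.9% in Dnmt3L KO, between these pairs, and at 30.1% in Pld6 KO, between Catsperg1 and Kcnu1. With the CpG counts set beside these shares, Catsper4 and Catsperb, with 1 CpG each, had the smallest shares and Catsper3, with 2 CpG, the next. The order did not hold beyond that, since Catsperg1, with 5 and 7 CpG, kept a larger share than Catsper2 with 35 and Catsperd with 25 and 11. These are 6 genes and the relation is a description. Other genes with a window did not keep the order at low counts. Efcab9, with 1 CpG, kept 13.3% in Dnmt3L KO and 14.0% in Pld6 KO. Slc9c1 (3 CpG), Slco6c1 (4 CpG), Lrrc52 (5 CpG) and Catsperz (7 CpG) were at 2.41% or less in both mutants. C2cd6 (14 and 13 CpG) kept 10.1% and 28.8%, and Catspere2 (7 and 9 CpG) kept 68.2% and 29.4%.

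**Figure D2:**
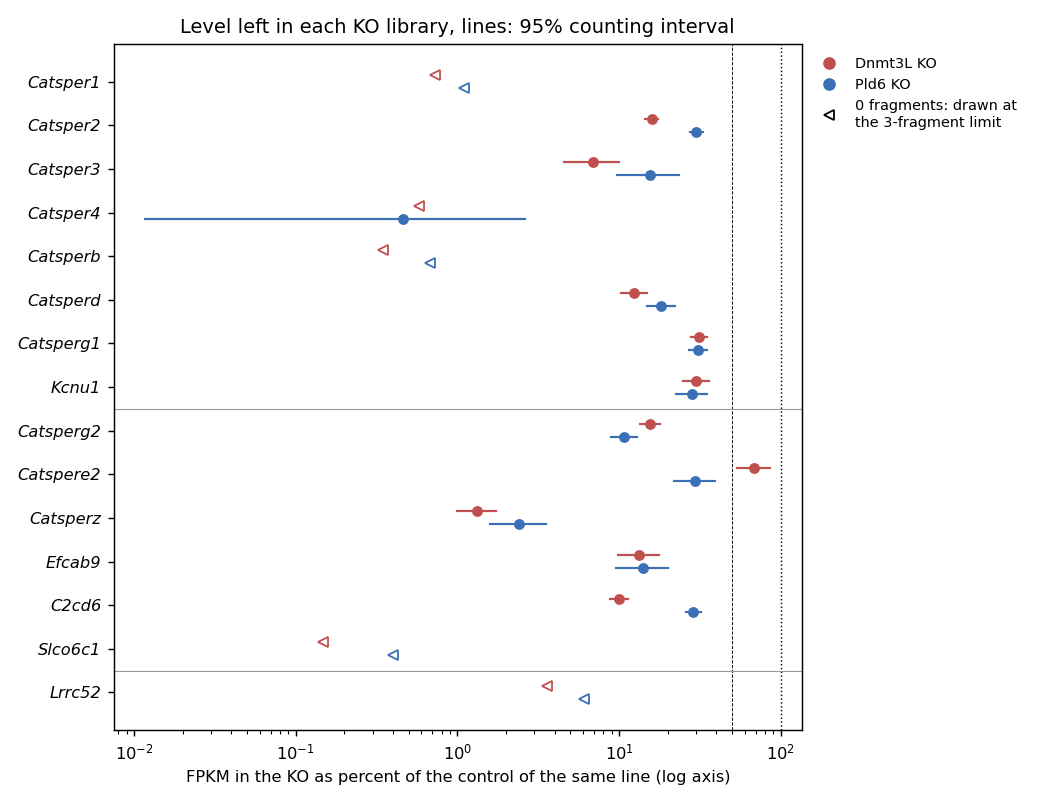
FPKM in each mutant as a percent of the control of the same line (horizontal logarithmic axis) for the 8 genes, the 6 other CatSper subunits measured, and Lrrc52 (rows). Points carry 95% counting intervals, open triangles mark 0 fragments drawn at the 3-fragment limit, and the dashed and dotted lines stand at 50 and 100 percent. Catsper1, Catsper4, Catsperb, Catsperz and Slco6c1 lie below 5 percent in both mutants, while Catsperg1 and Kcnu1 lie near 30 percent.

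The order of levels differed between controls and mutants. In both controls Catsper2 was far above the rest and Kcnu1 below all others, and the 6 genes between them overlapped: the means of the controls ran from 8.88 ± 0.567 FPKM (SD, n = 2) for Catsperd, 8.48 ± 0.893 for Catsperg1, 6.93 ± 2.85 for Catsper3 and 6.33 ± 1.59 for Catsper4 to 4.64 ± 0.0385 for Catsper1 and 4.62 ± 0.866 for Catsperb, with Kcnu1 at 3.21 ± 0.221 and Catsper2 at 30.5 ± 1.80. In both mutants the order was Catsper2, Catsperg1, Catsperd, Kcnu1 and Catsper3, followed by the genes at 0 or 1 fragment. The summed FPKM of the pore subunits was 52.8, 43.9, 5.67 and 9.56 in Dnmt3L Het, Pld6 WT, Dnmt3L KO and Pld6 KO libraries. Catsper2 made up 60.1% and 66.5% of that sum in the controls and 89.2% and 91.8% in the mutants. Of the 4 pore subunits, all were above 3 fragments in each control, and Catsper2 and Catsper3 alone in each mutant.

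Between the mutants, Catsper2 in Pld6 KO stood 1.74-fold above its level in Dnmt3L KO (95% counting interval 1.54 to 1.96), although it was slightly lower in Pld6 WT than in the heterozygote. Catsperd was 1.34-fold higher (1.04 to 1.74). The ratio was 1.24 (0.690 to 2.20) for Catsper3, 1.15 (0.987 to 1.34) for Catsperg1 and 1.03 (0.791 to 1.34) for Kcnu1, so that for these no difference was detectable at this depth. The intervals cover counting error only and compare 2 libraries, not the genotypes. The L/Z markers also summed higher in Pld6 KO (1576 FPKM) than in Dnmt3L KO (976 FPKM). With FPKM scaled to that sum, the log2 change of Catsper2 against the controls was -1.42 in Dnmt3L KO and -1.33 in Pld6 KO. That of Catsperd was -1.48 and -1.66. This scaling also raised the median expressed gene, by 0.987 in Dnmt3L KO and 0.293 in Pld6 KO on the log2 scale. Relative to that shift, Catsper2 was at -2.41 and -1.62 and Catsperd at -2.47 and -1.95. Whether the mutants differ in these genes was not tested.

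The rule of size that all 8 genes met in both mutants was met by 9.16% (Dnmt3L KO) and 8.57% (Pld6 KO) of the 14416 genes with a mean of at least 1 FPKM over the libraries, to which all 8 belong. The members' median log2 change against the mean of the controls was -2.34 in Dnmt3L KO and -2.06 in Pld6 KO, on the log2(FPKM + 1) scale that understates the change of low genes. Setting genes at 0 to the 3-fragment limit left the medians equal. This is no check on them, as those genes stay below the middle genes and so cannot move a median. The median over the 14416 expressed genes was -0.02 and -0.05. Against Pld6 WT alone, without Dnmt3L Het, 8 of 8 met the rule in each mutant, beside 8.75% (Dnmt3L KO) and 6.46% (Pld6 KO) of all listed genes, and the median change was -2.23 and -1.82. Against Dnmt3L Het alone 8 of 8 met it, beside 8.22% and 13.4% of all listed genes, and the median was -2.47 and -2.26.

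The main test across all genes did not call any of them. With edgeR's quasi-likelihood test on the fragments, whose spread comes from 1 residual degree of freedom between the controls (biological coefficient of variation 0.589), 0 of 18657 genes passed an adjusted p of 0.05. The members' adjusted p ranged from 0.0967 to 0.690 in Dnmt3L KO and from 0.102 to 0.761 in Pld6 KO. At an unadjusted p under 0.05, 6 of the 8 were lower in each mutant (all but Catsperg1 and Kcnu1), beside 7.72% and 7.41% of all genes tested. With both mutants taken as 1 group, 8 of 8 were lower at an unadjusted p under 0.05 (8.75% of the genes tested). At an adjusted p of 0.05, 0 of the 8 and 0 of all 17686 genes tested were lower, the smallest adjusted p being 0.0877.

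Other tools gave other counts. Without a filter on low counts, edgeR called Catsper1, Catsper4 and Catsperb lower in both mutants. Their adjusted p was 0.0203 to 0.0216 in Dnmt3L KO (2.06% of the genes tested called lower) and 0.0233 to 0.0292 in Pld6 KO (2.09%). DESeq2 called 6 of the 8 lower in Dnmt3L KO (5.31% of the genes given an adjusted p) and 4 in Pld6 KO (5.1%). These were the 4 pore subunits, Catsperb and Catsperd in the first and Catsper1, Catsper3, Catsper4 and Catsperb in the second. Catsperg1 and Kcnu1 were called by none of these.

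The call also depended on whether line was a term. With both mutants as 1 group and the line as a block, so that each mutant was paired with the control of its line, edgeR called 7 of the 8 lower at an adjusted p of 0.05, beside 5.98% of the 17686 genes tested. This fit was added after the values were seen, has 1 residual degree of freedom, and tests what the mutants have in common rather than either one. Adjusted p ran from 0.00141 (Catsperb) to 0.0248 (Catsper3), and Kcnu1, at 0.0791, did not pass. The log2 change was -12.6 for Catsperb, a gene at 0 in both mutants whose fitted value depends on the prior count, -2.22 for Catsper2, -2.76 for Catsperd and -1.72 for Catsperg1. At an unadjusted p under 0.05, 8 of 8 were lower, beside 11.8% of the genes tested.

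Of the 9 further CatSper subunits looked for, 6 had a row in the table, and 5 of these 6 were lower than both controls by more than 2-fold in each mutant. Catsperz, a small cytoplasmic subunit listed as Tex40, was the most abundant, at 145 FPKM in Dnmt3L Het, 61.1 FPKM in Pld6 WT, 1.93 FPKM in Dnmt3L KO and 1.47 FPKM in Pld6 KO. Its controls differed by 2.38-fold, and 47.2% of the 50-base windows of its transcript also occur in Kcnk4. Slco6c1, a transporter-like protein of the complex, was at 19.1 and 10.5 FPKM in the controls (2771 and 958 fragments) and at 0 in both mutants, at least 674-fold and 249-fold lower than in the control of the line. It thus joined Catsper1 and Catsperb among the genes with 0 fragments in both.

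Efcab9, the calcium-binding partner of Catsperz, was at 14.8 and 13.5 FPKM in the controls and at 1.98 and 1.90 FPKM in Dnmt3L KO and Pld6 KO. C2cd6 (listed as Als2cr11), a protein needed to bring the complex into the flagellum, was at 27.3 and 23.9 FPKM in the controls, 2.74 FPKM in Dnmt3L KO and 6.90 FPKM in Pld6 KO. As for Catsper2, the level of C2cd6 in Pld6 KO exceeded that in Dnmt3L KO, and whether the mutants differ was not tested.

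The gamma subunits could be set side by side: Catsperg2 was at 8.23 and 9.63 FPKM in the controls and at 1.29 and 1.04 FPKM in Dnmt3L KO and Pld6 KO, so that 15.6% and 10.8% were left, against 31.2% and 31.0% of Catsperg1. The split of shared reads between these genes limits that comparison. Catspere2 (listed as Gm16432) was the exception in the list, at 2.22, 4.40, 1.52 and 1.30 FPKM in Dnmt3L Het, Pld6 WT, Dnmt3L KO and Pld6 KO, and 21.1% of its windows are shared with Catspere1. Catspere1, Tmem249 and Tmem262 were not analysed here.

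Other channels and transporters of sperm were mixed. Of 15 genes, 7 were lower than both controls by more than 2-fold in Dnmt3L KO and 5 in Pld6 KO. Hvcn1, Slc9b2 and Slc26a3 were below 1 FPKM in both controls and so could not meet this rule on FPKM + 1. The 4 most abundant differed from each other. P2rx2, an ATP-gated channel, was at 95.5, 3.50, 59.6 and 6.47 FPKM in Dnmt3L Het, Pld6 WT, Dnmt3L KO and Pld6 KO, so both libraries of the Dnmt3L line were above both of the Pld6 line. Atp2b4, a plasma membrane calcium pump, did the same, with 17.2, 5.83, 26.1 and 9.90 FPKM. Slc9b1, a sodium-hydrogen exchanger of the sperm tail, was at 21.0, 16.6, 5.41 and 8.61 FPKM, and the anion transporter Slc26a8 was at 10.9, 15.0, 3.69 and 7.28 FPKM. Both genes lay below both controls in each mutant and met the 2-fold rule in Dnmt3L KO but not in Pld6 KO, and whether the mutants differ was not tested. The sperm-specific exchanger Slc9c1, chosen after its values had been seen, was near 0 in the mutants as well, with 8.50 and 7.39 FPKM in the controls (2030 and 1107 fragments), and 10 and 0 fragments in the mutants.

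Relatives of these channels known mainly from other tissues were not lower as a group. Of the 12 voltage-gated calcium and 2-pore channels, none was lower than both controls by more than 2-fold in either mutant. A gene at or below 1 FPKM in either control cannot meet this rule on FPKM + 1, whatever its mutant level. Cacna1a, Cacna1b, Cacna1e, Cacna1f, Cacna1g, Cacna1i and Cacna1s were below 1 FPKM in Dnmt3L Het, so the rule says nothing on them. The median log2 change of the 12 genes was 0.01 in Dnmt3L KO and 0.53 in Pld6 KO. Cacna1h, a T-type calcium channel, was at 7.16 and 13.4 FPKM in the controls and at 4.99 and 15.5 FPKM in Dnmt3L KO and Pld6 KO, and Tpcn2, an endolysosomal channel, was at 4.45 and 5.52 against 4.54 and 10.8 FPKM. Tpcn1 (4.25 and 2.32 against 8.79 and 5.12 FPKM) and the L-type channel gene Cacna1c (1.48 and 3.92 against 2.21 and 6.14 FPKM) completed the 4 most abundant. Of the Slo family, Kcnma1, the calcium-activated channel closest to Kcnu1, was at 2.23 and 0.980 FPKM in the controls and 5.44 and 1.98 FPKM in the mutants, Kcnt1 was at 2.53 and 5.22 against 4.25 and 9.12 FPKM, and Kcnt2 was under 0.2 FPKM in all libraries. None of these 3 was lower by the rule, but Kcnma1, at 0.980 FPKM in Pld6 WT, and Kcnt2 could not have met it. Kcnt2 had 38, 12, 1 and 11 fragments in Dnmt3L Het, Pld6 WT, Dnmt3L KO and Pld6 KO.

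**Figure D3:**
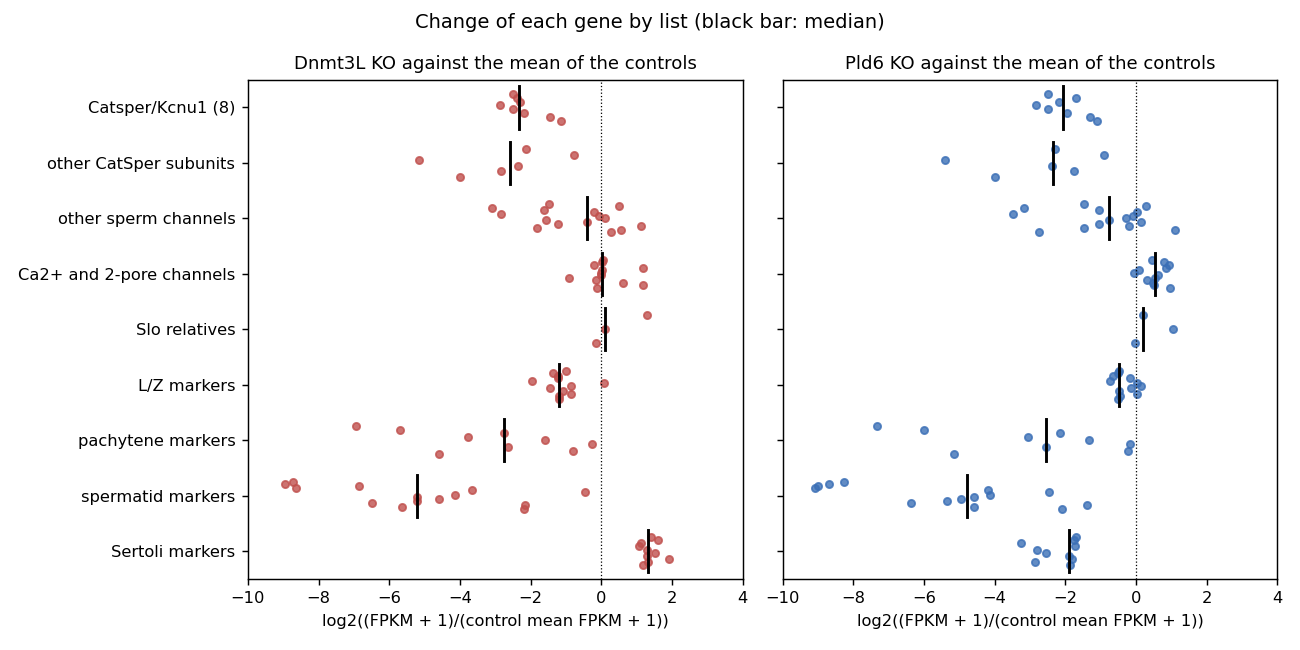
log2((FPKM + 1)/(mean control FPKM + 1)) of each gene (points, horizontal axis) by list (rows) in Dnmt3L KO (left) and Pld6 KO (right), with the median of each list as a black bar. The 8 genes lie between -2.87 and -1.11 in both panels. Their medians, -2.34 (left) and -2.06 (right), are near those of the pachytene markers, -2.75 and -2.54. Single pachytene markers spread more widely, from -6.93 to -0.27 (left) and from -7.32 to -0.18 (right). The calcium and 2-pore channels have medians of 0.01 (left) and 0.53 (right).

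Markers of later germ cells were lower in the mutants too. The 9 pachytene markers (Ldhc, Pgk2, Piwil1 and others) summed to 1051, 610 and, in the mutants, 76.8 and 89.8 FPKM, with 7 of 9 lower by the rule in each mutant and a median of 10.8% and 16.7% of the control of the line. The corresponding medians of the 8 sperm channel genes were 9.64% and 16.9%. Among the pachytene markers, Mybl1 was at 115% (Dnmt3L KO) and 68.2% (Pld6 KO) of the control of the line. Hist1h1t was at 32.6% and 79.8%, and neither gene met the rule in either mutant. Ldhc alone contributed 623 and 304 FPKM to the pachytene sums of Dnmt3L Het and Pld6 WT. The 14 spermatid markers summed to 7491, 314, 34.1 and 20.4 FPKM in Dnmt3L Het, Pld6 WT, Dnmt3L KO and Pld6 KO, with 12 and 13 lower by the rule and 2 of them at 0 in each mutant (Spaca7 in both, Smcp in Dnmt3L KO and Acrv1 in Pld6 KO). The 12 L/Z markers summed to 1669, 2724, 976 and 1576 FPKM, a median of 64.4% and 62.5% of the control of the line. The part of later germ cells within the sorted fraction in the lower levels of the channel genes was not tested.

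Scaled to the summed FPKM of the L/Z markers, an alternative chosen after the values were seen, 4 of the 8 genes stayed lower than both controls by more than 2-fold in Dnmt3L KO (3.26% of all genes) and 5 in Pld6 KO (3.8%). Catsper2, Catsperg1 and Kcnu1 dropped out in both and Catsper3 in Dnmt3L KO. This scaling raised the median expressed gene by 0.987 and 0.293 on the log2 scale in Dnmt3L KO and Pld6 KO. The members' median log2 change after the scaling was -1.636 in Dnmt3L KO and -1.815 in Pld6 KO. Catsperg1 was at -0.57 and -0.96 after the scaling and Kcnu1 at -0.48 and -0.84.

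The controls differed strongly in spermatid and Sertoli cell markers, and the L/Z markers differed between them too. The 8 genes differed less between the controls. Prm1, a protamine of spermatids, was at 2372 FPKM in Dnmt3L Het and 16.3 FPKM in Pld6 WT. The Dnmt3L Het to Pld6 WT ratios of the spermatid markers ran from 0.828 to 145.8, with a median of 5.34. The 10 Sertoli cell markers summed to 2808 and 102 FPKM in the controls and to 4058 and 255 FPKM in Dnmt3L KO and Pld6 KO. The Dnmt3L Het to Pld6 WT ratio of the 8 genes ran from 0.861 (Catsperg1) to 1.82 (Catsper3) with a median of 1.09, and 0 of the 8 were more than 2-fold apart in FPKM + 1, against 23.7% of all expressed genes. That of the pachytene markers had a median of 1.42, within the range of the 8 genes, and that of the L/Z markers a median of 0.495. Leydig, peritubular and macrophage markers were also higher in the heterozygote (sums of 324, 426 and 24.6 FPKM) than in Pld6 WT (24.7, 93.3 and 6.66 FPKM), while the spermatogonial markers summed to 759 and 1024 FPKM. In Dnmt3L KO and Pld6 KO the Leydig markers summed to 309.5 and 216 FPKM, the peritubular ones to 261 and 440.5, the macrophage ones to 60.5 and 23.8, and the spermatogonial ones to 709 and 1017 FPKM.

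**Figure D4:**
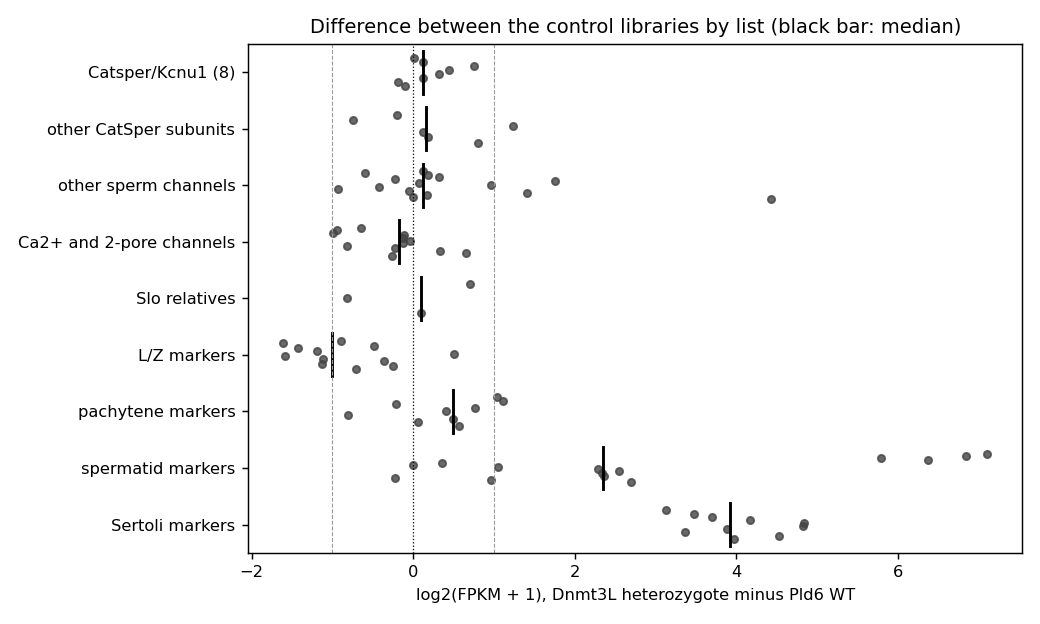
Difference in log2(FPKM + 1) between the control libraries, Dnmt3L Het minus Pld6 WT (horizontal axis), for each gene (points) by list (rows), with list medians as black bars and dashed lines at 2-fold. The 8 genes lie within 2-fold, between -0.19 and 0.75, whereas spermatid and Sertoli cell markers reach far to the right.

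Finally, the genes most like the 8 were sought by the distance of centred log2(FPKM + 1) profiles over the 4 libraries from the members' median profile, among expressed genes in none of the lists. The 10 nearest were Ccdc11, Gm6408, Pcsk4, Zdhhc11, Bpi, Zdhhc19, Cib4, Pdzk1ip1, Adam24 and Adam30, at distances of 0.055 to 0.197. Ccdc11, the nearest, was at 8.21, 7.04, 0.844 and 1.05 FPKM in Dnmt3L Het, Pld6 WT, Dnmt3L KO and Pld6 KO. Pcsk4, a proprotein convertase of germ cells, was at 10.1, 7.36, 1.01 and 1.34 FPKM. Zdhhc11, Bpi, Zdhhc19, Cib4 and Adam24 were at 0 in both mutants, as Catsper1 and Catsperb were. Of the members, Catsperd lay closest to the median profile, at 0.106, with 2 other genes nearer, and Kcnu1 farthest, at 1.07, with 674 nearer. With 4 libraries many genes can have such a profile, and the distance is a description.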

How the data were processed

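PolyA(+) RNA of 4 libraries was sequenced as stranded 50-bp single-end reads. The authors used TopHat2 and Cuffdiff, whose full versions are not given in the sources used here, and build mm10 is named in the submitters' processing notes. The deposited table gives, per gene and library, an estimated count of fragments before scaling and FPKM, which the authors' tool scaled to transcript length and depth. Of the estimated counts 97.3% to 97.4% were whole numbers (within 1e-06), and they were rounded for the tests. The table's internally and externally scaled fragments were not used. Values marked as failed by the tool numbered 4 to 13 per library, none of them in the 8 genes, and were kept as listed.

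The members and lists were chosen with earlier results of these data known. The genes named are the 8 members, the other CatSper subunits, the 4 most abundant genes of each further channel list and the 10 nearest profiles, and any other is said to be chosen after its values were seen, apart from markers. Changes are log2 ratios of FPKM + 1. A gene counted as lower when it lay more than 2-fold below both controls, since each mutant had 1 library. edgeR 4.0.16 (quasi-likelihood test, TMM, filterByExpr, Benjamini-Hochberg) in R 4.3.3 was run over all genes in 3 groups, after a check on simulated data, with DESeq2 1.42.0 as an alternative. Line could not be a further term in that fit, as 0 residual degrees of freedom would remain, and it was a block in a fit with both mutants as 1 group. The pairing comes from the genotype labels, which tie each mutant to the control of its line, and with 2 pairs it was not checked further. The number of animals behind each library is not stated, so p-values measure only the spread between these libraries. In the fit with 3 groups that is the spread between controls of unlike genotype, line and marker content. It is not a spread between replicate animals, and part of it may be technical. Intervals of folds are exact binomial intervals at 95% on the fragments, cover counting error only (no molecular identifiers), and a count of 0 was taken to allow 3 fragments. Positions, strands and upstream sequences came from RefSeq tables of GRCm38.p6, which has the coordinates of mm10, and exons and 50-base windows from GENCODE M21. Alternatives were another pseudocount, other scalings, a 3-fold rule, each control left out, no filter, other size factors, both mutants as 1 group with and without the block, and DESeq2.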

Additional observations from a re-analysis of the deposited data

How the results depend on the processing

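The 8 genes stayed lower than both controls by more than 2-fold in both mutants (8 of 8) with a pseudocount of 0.1 FPKM (9.84% and 9.58% of all genes in Dnmt3L KO and Pld6 KO), with fragments scaled to depth alone (6.38% and 5.55%), with TMM scaling (6.18% and 5.95%) and with either control left out (6.46% to 13.4%). A 3-fold rule kept 6 in each mutant, without Catsperg1 and Kcnu1 (3.66% and 3.56% of all genes). Scaling to L/Z markers, added after the values were seen, left 4 in Dnmt3L KO and 5 in Pld6 KO. The members' median log2 change was -3.07 and -2.74 with a pseudocount of 0.1 FPKM and -1.64 (Dnmt3L KO) with L/Z scaling. Leaving out either control gave medians of -2.47 to -2.23 in Dnmt3L KO and -2.26 to -1.82 in Pld6 KO. Of the 96 single-gene changes under alternatives all were negative, and 53 moved by more than the spread between the controls.

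The count tests depended on the tool. Without a filter, edgeR called 423 genes lower and 6 higher in Dnmt3L KO, 429 and 8 in Pld6 KO, and 3 members in each. DESeq2 called 925 lower and 17 higher in Dnmt3L KO and 949 and 15 in Pld6 KO, with 6 and 4 members. The cause was not tested. edgeR without a control was not run, since no residual degree of freedom would be left. The labels give no replicate numbers, but with both mutants as 1 group and the line as a replicate block, added after the values were seen, edgeR called 1058 genes lower and 131 higher and 7 members lower, against 0 without the block. Depth limits the genes at 0, which can hold up to 3 fragments.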
